A study of Mus musculus with 12 samples.

Results

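The genes described here are 10 receptors, junction proteins and a ligand of the vessel lining, out of 23427 genes in the deposited expression table: Kdr, Flt1, Flt4, Vegfc, Tek, Tie1, Eng, Pecam1, Cdh5 and Esam. They were chosen by name for their known role in endothelial cells. Of these, 9 were found under these symbols, and Esam was found by its Entrez identifier under the older symbol Esam1. The expression data came from 4 RNA libraries of mouse cardiomyocytes made in culture from CM7/1, an embryonic stem cell line. These were an uninduced control and an induced library of a Hey1 line, and the same pair for a Hey2 line. Induction was 1000 ng/ml doxycycline for 48 h. Doxycycline is the drug that switches on the transgene in such inducible lines. The sources used here do not give the construct, the promoter behind it or the number of clones per line. Each group had 1 library, so no difference below has a replicate check and no test between conditions was possible. No RNA library came from cells given doxycycline without an inducible Hey gene, so effects of the drug and of the Hey proteins cannot be told apart. The 8 chromatin samples of the series were not analysed here.

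Endothelial cells sense growth factors of the VEGF family through tyrosine kinase receptors at their surface. Kdr carries most of the mitogenic signal of Vegfa, Flt1 binds Vegfa tightly but signals weakly, and Flt4 is the receptor of Vegfc in lymphatic and early blood vessels. Tek binds angiopoietins and Tie1 is its partner, Eng is a co-receptor for ligands of the TGF-beta and BMP family, and Cdh5, Pecam1 and Esam hold neighbouring endothelial cells together. Several of these genes are also active outside vessels: Kdr in the mesoderm progenitors of heart, blood and vessels, and Pecam1 in embryonic stem cells. Hey1 and Hey2 are Notch target genes that encode transcriptional repressors needed for vessel and heart development, and they are known to bind the letters CACGTG and CACGCG.

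The promoter sequences of the 3 VEGF receptors are shown because the widest and one of the narrower line contrasts below fall within this receptor family. Each is the 250 bases before the annotated start, 5′ to 3′ in the direction of the gene, from RefSeq on the build GRCm38.p6. Capitals mark GGAA, the core letters bound by ETS factors, on either strand (TTCC is the same on the other strand), and CACGCG.
Kdr, chr5:75978456-75978705, minus strand: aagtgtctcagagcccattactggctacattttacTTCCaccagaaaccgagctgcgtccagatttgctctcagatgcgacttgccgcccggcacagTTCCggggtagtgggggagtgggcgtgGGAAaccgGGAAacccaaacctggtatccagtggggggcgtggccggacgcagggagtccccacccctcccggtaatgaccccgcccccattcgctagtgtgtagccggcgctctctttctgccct
Flt1, chr5:147726012-147726261, minus strand: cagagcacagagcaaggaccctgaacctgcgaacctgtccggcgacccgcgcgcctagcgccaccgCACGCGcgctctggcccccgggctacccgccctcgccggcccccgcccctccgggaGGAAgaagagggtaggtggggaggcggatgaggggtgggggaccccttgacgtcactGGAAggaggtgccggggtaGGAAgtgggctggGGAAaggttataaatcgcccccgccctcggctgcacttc
Flt4, chr11:49609429-49609678, plus strand: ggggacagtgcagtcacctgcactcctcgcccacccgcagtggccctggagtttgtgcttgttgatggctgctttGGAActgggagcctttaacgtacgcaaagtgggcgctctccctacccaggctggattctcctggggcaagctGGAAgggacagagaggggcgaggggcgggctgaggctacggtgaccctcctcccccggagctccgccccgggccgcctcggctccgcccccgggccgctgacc
GGAA occurred on either strand 4 times in the window of Kdr, 4 times in that of Flt1 and 2 times in that of Flt4. Of 32851 promoter windows of this length, 93.4% held it at least once, as did all 7 of the 10 genes that had a window in the table used (Kdr, Flt1, Flt4, Vegfc, Tek, Tie1 and Eng). CACGCG was found in 1 of these 7, Flt1, with its first base at -184 from the start, against 7.62% of all windows. CACGTG was found in none of the 7, against 6.02% of all windows. The broader E-box letters CANNTG, which include every CACGTG, were in 5 of the 7 and in 66.2% of all windows. These matches describe letters in a window and not binding.

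Expression was deposited as RPKM, reads scaled to gene length and library depth, so levels can be compared between genes. Low RPKM values were whole multiples of what 1 read is worth, which gave back the reads behind each value. The library divisors so found were 7400000, 7500000, 5750000 and 10375000 reads for Hey1 uninduced, Hey1 induced, Hey2 uninduced and Hey2 induced. The smallest gene length that gave whole reads left a sharp rise in the number of values at 10 reads in the Hey1-line libraries and at 5 in the Hey2-line libraries. In the uninduced Hey1 line 12 values had 1 read less than this and 131 had exactly this, and in the uninduced Hey2 line these counts were 42 and 344. These read numbers were taken as listing floors. The 97, 94, 231 and 379 values that lay below them were given the next longer length that met the floor, which is an assumption, and of the 10 genes only Esam was among them (6 and 8 reads in the Hey2 line, or 3 and 4 at the smaller length). Blank cells were read as below the floor, although the sources used here do not say what a blank means, and every bound against the floor rests on that reading. Intervals are exact 95% Poisson intervals for levels and exact conditional binomial 95% intervals for ratios. They cover counting error only, and reads copied by PCR are not independent molecules. The induced genes moved with their labels: Hey1 was 0.735 RPKM uninduced and 8.59 RPKM induced in Hey1-line cells, and Hey2 was blank uninduced (floor 0.343 RPKM) and 6.59 RPKM induced in the Hey2 line.

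The Hey2-line libraries stood apart from the Hey1-line libraries in the markers of the labelled cell type. All 12 cardiomyocyte markers examined were listed in every library, but their summed level was 19337 and 20109 RPKM in uninduced and induced Hey1-line cells and 1211 and 1256 RPKM in the Hey2 line. Troponin T (Tnnt2), part of the contractile apparatus, stood at 3054, 3524, 258 and 260 RPKM in Hey1 uninduced, Hey1 induced, Hey2 uninduced and Hey2 induced cells. Each of the 12 was at least 2-fold lower in the Hey2 line in both the uninduced and the induced pair. Of all genes listed in both libraries of a pair, 30.8% uninduced and 32.8% induced were at least 2-fold different either way. Summed pluripotent cell markers (12 genes) ran the other way, at 47.8 and 37.7 RPKM in Hey1-line cells and 438 and 458 RPKM in the Hey2 line. Pou5f1, which keeps stem cells pluripotent, stood at 9.93, 8.87, 98.1 and 82.8 RPKM in the same order of libraries. In bulk libraries such as these, fewer cells of a type and less RNA per cell cannot be told apart. The part of this difference in the line comparisons below was not tested, and line, cell makeup and any difference in differentiation cannot be told apart.

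All 10 genes were low. Their summed level was 6.54 and 6.37 RPKM in uninduced and induced Hey1-line cells, and 19.6 and 18.3 RPKM in the Hey2 line. Behind these sums stood 160, 155, 492 and 846 reads. Of the 10, 7 were listed in the uninduced Hey1 line, 6 in the induced Hey1 line and all 10 in both Hey2-line libraries. The 3 that were listed in the Hey2 line and blank in both Hey1-line libraries were Tie1, Cdh5 and Esam.

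**Figure D1:**
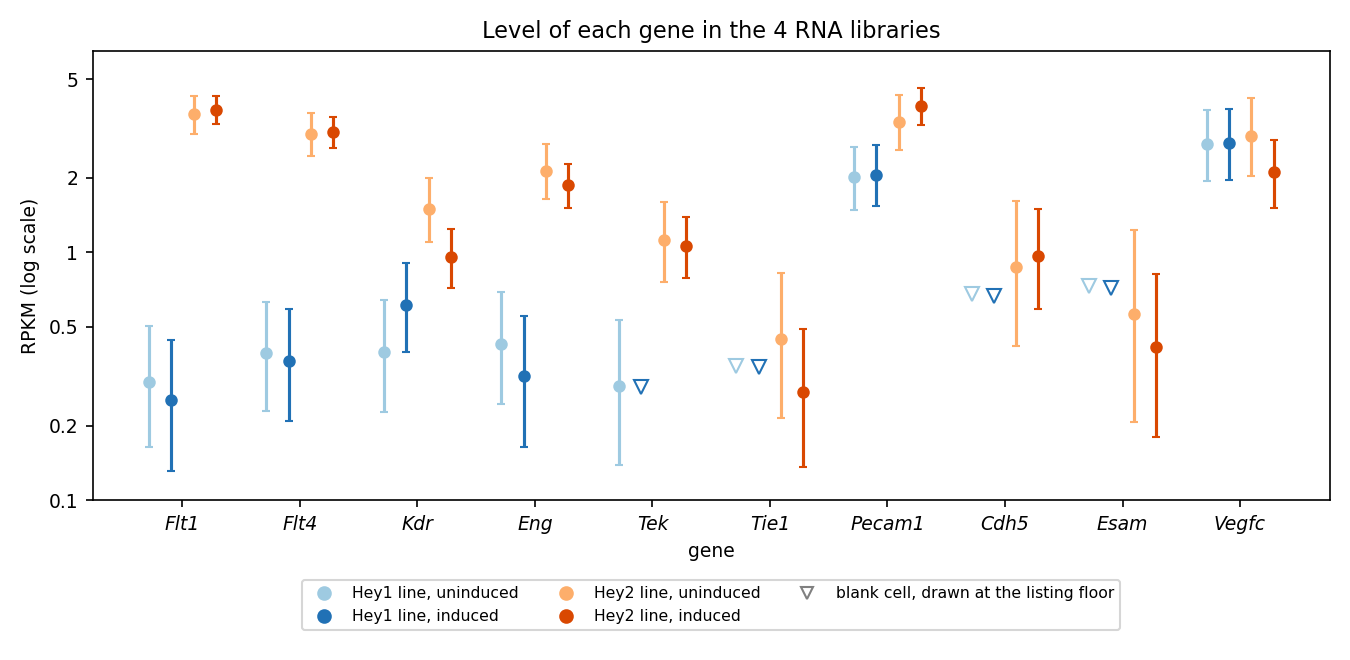
RPKM (log axis) of each gene in the 4 libraries, with exact 95% Poisson intervals. Open triangles mark blank cells at the listing floor. Flt1, Flt4 and Eng lie below 0.5 RPKM in Hey1-line cells and above 1.5 RPKM in the Hey2 line, while Vegfc overlaps in all 4 libraries.

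Among the VEGF receptors, Flt1 had the widest contrast. It stood at 0.301 RPKM (14 reads, 0.165 to 0.505) in the uninduced and 0.255 RPKM (12 reads, 0.132 to 0.445) in the induced Hey1 line. In the Hey2 line it stood at 3.60 RPKM (130 reads, 3.01 to 4.27) uninduced and 3.76 RPKM (245 reads, 3.30 to 4.26) induced. Both Hey2-line values were high and both Hey1-line values low, with no overlap of intervals. Flt1 was 12.0-fold higher (6.87 to 22.5) in the uninduced Hey2 line than in the uninduced Hey1 line, and 14.8-fold higher (8.30 to 29.0) between the induced libraries. In the uninduced Hey1 line 1.04% of listed genes had a lower RPKM than Flt1, and in the uninduced Hey2 line 43.4% did.

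Flt4, the Vegfc receptor, had nearly the same pattern. Its levels were 0.393 RPKM (17 reads) and 0.365 RPKM (16 reads) in uninduced and induced Hey1-line cells, and 3.01 RPKM (101 reads) and 3.05 RPKM (185 reads) in the Hey2 line. The lines did not overlap. The ratio between lines was 7.65 (4.55 to 13.6) uninduced and 8.36 (5.01 to 14.9) induced.

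Kdr, the main signalling receptor, had smaller ratios between the lines, and it was the only VEGF receptor with a counting interval off 1 after induction in the Hey2 line. It stood at 0.397 RPKM (16 reads, 0.227 to 0.645) and 0.612 RPKM (25 reads, 0.396 to 0.903) in uninduced and induced Hey1-line cells. In the Hey2 line it stood at 1.5 RPKM (47 reads, 1.10 to 2.0) uninduced and 0.956 RPKM (54 reads, 0.718 to 1.25) induced. The uninduced Hey2 line was highest, and the 2 induced libraries overlapped. Kdr was 3.78-fold higher (2.11 to 7.14) in the uninduced Hey2 line, and 1.56-fold higher (0.955 to 2.62) in the induced Hey2 line, where the interval spans 1.

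Because the receptors differed unequally, the make-up of the group differed between lines. Kdr was 36.4% and 49.7% of the summed VEGF receptor RPKM in uninduced and induced Hey1-line cells, and 18.5% and 12.3% in the Hey2 line. Flt1 was 27.6% and 20.7% in Hey1-line cells, and 44.4% and 48.4% in the Hey2 line. The share of Flt4 differed less, at 36.0% and 29.7% in Hey1-line cells and 37.1% and 39.3% in the Hey2 line. The summed level itself was 1.09 and 1.23 RPKM in Hey1-line cells and 8.11 and 7.77 RPKM in the Hey2 line.

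Vegfc, the ligand of Flt4 and Kdr, did not follow the receptors. Its levels were 2.73 RPKM (38 reads), 2.76 RPKM (39 reads), 2.96 RPKM (32 reads) and 2.10 RPKM (41 reads) in Hey1 uninduced, Hey1 induced, Hey2 uninduced and Hey2 induced cells. All 4 intervals overlapped. Between uninduced lines its ratio was 1.08 (0.655 to 1.78), which became 0.929 under median ratio scaling (each library divided by its median ratio to the mean over genes listed in all 4), so no direction is given. Between induced lines it was 1.32-fold lower in the Hey2 line (0.827 to 2.09). Median ratio scaling put the induced ratio at 0.614 (0.387 to 0.978), below 1. Upper quartile scaling, by the upper quartile of the same genes, put it at 0.643 (0.404 to 1.02), which spans 1.

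Of the Tie receptors, Tie1, and Tek in the Hey1 line, were near or below the limit of listing. Tek had 0.290 RPKM (10 reads) in the uninduced Hey1 line, was blank in the induced Hey1 line (floor 0.286 RPKM), and had 1.12 RPKM (30 reads) and 1.06 RPKM (51 reads) in the uninduced and induced Hey2 line. It was 3.86-fold higher (1.84 to 8.85) in the uninduced Hey2 line and at least 3.69-fold higher, against the floor, in the induced one. Tie1 was blank in both Hey1-line libraries and had 0.448 RPKM (10 reads) and 0.273 RPKM (11 reads) in the Hey2 line. Against the floor of the uninduced Hey1 line, 0.348 RPKM, it was at least 1.29-fold higher in the uninduced Hey2 line. The interval of that Hey2-line value, 0.215 to 0.825 RPKM, includes the floor, so this bound is not beyond counting error. In the induced pair the floor lies above the Hey2-line value, so no bound above 1 follows.

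Eng, the TGF-beta and BMP co-receptor, resembled Flt4. It stood at 0.427 RPKM (16 reads) and 0.316 RPKM (12 reads) in Hey1-line cells and at 2.13 RPKM (62 reads) and 1.87 RPKM (98 reads) in the Hey2 line, uninduced and induced. Its ratio between lines was 4.99 (2.84 to 9.26) uninduced and 5.90 (3.23 to 11.8) induced, and the lines did not overlap.

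The junction proteins divided by level. Pecam1 was the highest of these, at 2.0 RPKM (49 reads), 2.06 RPKM (51 reads), 3.37 RPKM (64 reads) and 3.88 RPKM (133 reads) in Hey1 uninduced, Hey1 induced, Hey2 uninduced and Hey2 induced cells. It was 1.68-fold higher (1.14 to 2.49) in the Hey2 line uninduced and 1.89-fold higher (1.36 to 2.66) induced. Under median ratio scaling the uninduced ratio was 1.44 (0.978 to 2.14), which spans 1. Cdh5, the cadherin of endothelial junctions, was blank in the Hey1 line and had 0.873 RPKM (10 reads) and 0.967 RPKM (20 reads) in the Hey2 line. Against the Hey1-line floor it was at least 1.29-fold higher uninduced and at least 1.45-fold higher induced. Its values also fit 2 times the length and reads, which would raise these bounds to 2.57 and 2.89. At the smaller length the Hey2-line intervals, 0.418 to 1.60 and 0.591 to 1.49 RPKM, include the Hey1-line floors of 0.678 and 0.669 RPKM. At the larger length they start at 0.533 and 0.691 RPKM, above floors of 0.339 and 0.335 RPKM. Esam, an immunoglobulin-type junction protein, was blank in the Hey1 line and had 0.563 RPKM (6 reads) and 0.416 RPKM (8 reads) in the Hey2 line, below the Hey1-line floor of 0.729 and 0.719 RPKM, so no bound above 1 follows.

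**Figure D2:**
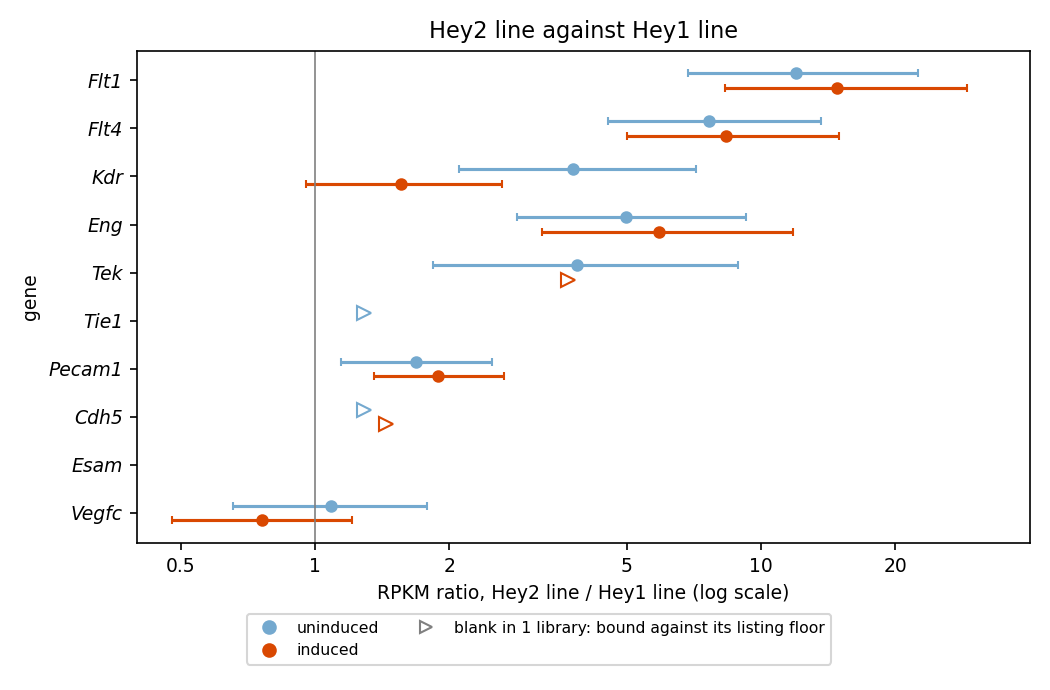
Ratio of RPKM in the Hey2 line to the Hey1 line (log axis) with exact conditional binomial 95% counting intervals, for the uninduced and the induced pair. Open triangles are lower bounds against the listing floor of the Hey1 line and are drawn only above 1. Flt1, at 12.0 and 14.8, lies farthest to the right, and Vegfc spans 1 in both pairs.

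Ranked by level, Vegfc and Pecam1 led the Hey1-line libraries, and Flt1 and Pecam1 led the Hey2-line libraries. Most neighbours in these orders had overlapping intervals. The exceptions were Pecam1 above Eng in the uninduced Hey1 line, Pecam1 above Kdr in the induced Hey1 line and Eng above Tek in the induced Hey2 line. In the uninduced Hey2 line every pair of neighbours overlapped.

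Counted against all genes, the line difference was common. A gene was called 2-fold different when log2(RPKM + 1) differed by 1 or more, a scale that understates low genes. In the uninduced pair 3 of the 7 genes listed in both (Flt1, Flt4 and Eng) were higher in the Hey2 line by at least 2-fold, against 18.8% of all genes listed in both. A pseudocount of 0.1 RPKM in place of 1 made this 5 of 7, with Kdr and Tek added. All but Vegfc, 6 of 7, had a counting interval above 1, against 42.7% of all genes. The other 3 were listed in the Hey2 line only, as were 14.9% of genes listed in either library. In the induced pair the same 3 of 6 genes were at least 2-fold higher (21.1% of all genes), 4 of 6 had an interval above 1 (45.8%), and 4 of 10 were listed in the Hey2 line only, as were 19.9% of genes listed in either library. Under median ratio scaling Eng, at 0.99, was just short of the 2-fold rule in the induced pair.

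The median difference of the genes was 0.84 on the log2(RPKM + 1) scale uninduced and 0.90 induced, beside 0.18 and 0.22 for all genes. Median ratio scaling moves every log2 ratio by -0.22 uninduced and -0.31 induced. After it the medians were 0.73 and 0.72, beside 0.022 and -0.012 for all genes. The listing floors, 10 reads in the Hey1-line libraries and 5 in the Hey2-line libraries, also differ between lines and bear on the counts of genes listed in 1 line.

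None of the 10 genes was 2-fold different after induction in either line. In the Hey1 line, of the 6 genes listed in both libraries 3 were higher and 3 lower, none was 2-fold different (0.143% of all genes) and none had a counting interval off 1 (17.4% of all genes). Kdr was 1.54-fold higher (0.791 to 3.09) and Eng 1.35-fold lower, and the other 4 ratios lay closer to 1. Tek was the 1 gene listed in only 1 of these libraries, at 10 reads, the floor itself. The median difference was -0.0080, beside -0.057 for all genes.

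In the Hey2 line all 10 genes were listed in both libraries. Of these 4 were higher and 6 lower, none was 2-fold different (0.0996% of all genes), and Kdr alone had an interval off 1, against 13% of all genes. Kdr was 1.57-fold lower (1.04 to 2.37) in the induced library. The same direction stood for Vegfc at 1.41-fold (0.858 to 2.29), Tie1 at 1.64-fold (0.625 to 4.25) and Esam at 1.35-fold, each with an interval spanning 1. Flt1 (ratio 1.04, 0.841 to 1.30) and Flt4 (1.02, 0.792 to 1.31) also spanned 1, and the difference between the receptors in this response was not tested. The median difference was -0.086, beside -0.0097 for all genes.

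**Figure D3:**
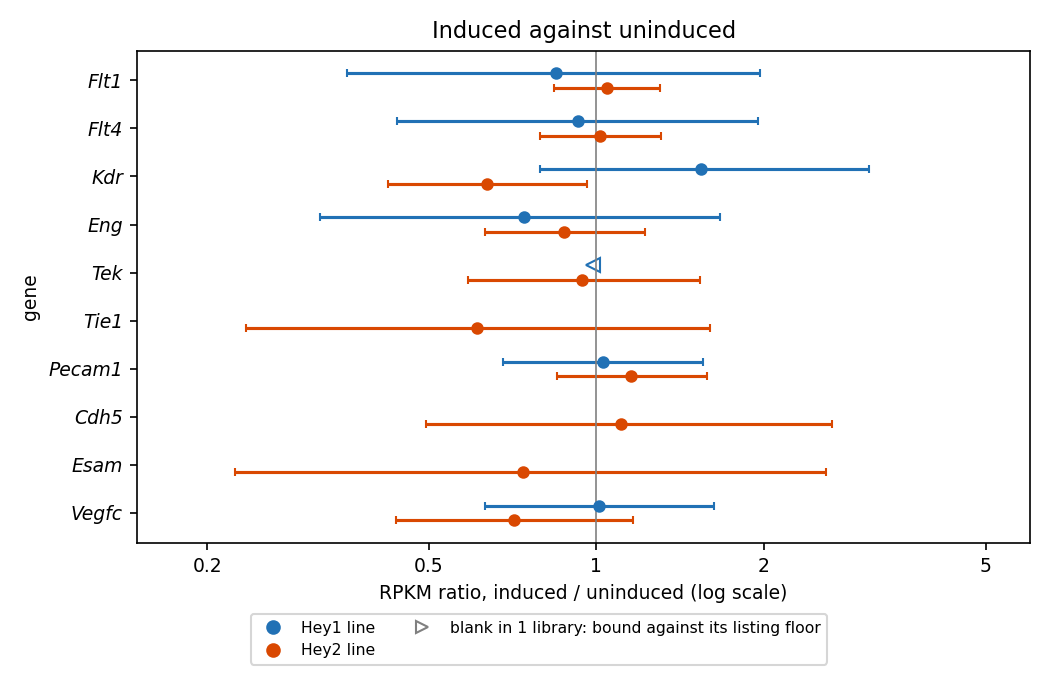
Ratio of RPKM in induced to uninduced cells (log axis) with exact conditional binomial 95% counting intervals, in each line. Kdr in the Hey2 line is the only interval off 1, and the open triangle is Tek in the Hey1 line, an upper bound because its induced cell is blank. Tie1, Cdh5 and Esam have no value for the Hey1 line.

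Kdr is an early mesoderm gene as well as an endothelial one. Among 10 mesoderm progenitor markers, 8 were listed in both Hey2-line libraries and 4 of these had an interval below 1 after induction, with a list median of -0.23. Over all genes 6.07% had an interval below 1 in this comparison. Mixl1, the only gene of any list at least 2-fold different in an induction on the log2(RPKM + 1) scale, went from 6.76 to 2.48 RPKM (RPKM ratio 0.367, 0.260 to 0.516). In the Hey1 line, 4 of the 10 were listed in both libraries and 1 had an interval below 1, Mixl1 again (0.640, 0.436 to 0.933), beside 12.7% of all genes (7.24% under median ratio scaling). The other 3 with an interval below 1 in the Hey2 line were Eomes (0.507, 0.409 to 0.627), Wnt3 (0.625, 0.414 to 0.946) and T (0.809, 0.675 to 0.970). All 3 were blank in the Hey1 line, and Eomes and Wnt3 were named after their values were seen. Gata4 and Hand1, which cardiomyocytes also express, had Hey2-line intervals that spanned 1 (1.06, 0.883 to 1.28, and 1.51, 0.863 to 2.75). Those of Pdgfra (1.09, 0.855 to 1.39) and Tbx6 (0.665, 0.169 to 2.75, on 5 and 6 reads) spanned 1 too. Of the 8 listed, 3 were higher and 5 lower after induction. Mesp1 (5 reads) and Foxf1a (8 reads) were listed in the induced Hey2 line only. That library was deeper (divisor 10375000 against 5750000 reads) under the same floor of 5 reads, so their blank uninduced cells give no direction. Whether the mesoderm markers and Kdr move for the same reason was not tested.

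The ligands of these receptors went both ways between the lines. Of 16 vascular ligands, 8 were listed in both uninduced libraries, with 2 at least 2-fold higher and 1 at least 2-fold lower in the Hey2 line and a median of -0.23. In the induced pair 8 were listed in both, none at least 2-fold higher and 2 at least 2-fold lower, with a median of 0.090. The 2 higher ones of the uninduced pair, Pdgfb and Egfl7, were blank in the induced Hey1 line and so left this count. They stood at 8.09 and 5.73 RPKM in the induced Hey2 line. In each pair 5 more ligands were listed in the Hey2 line only (14.9% and 19.9% of all genes listed in either) and 1 in the Hey1 line only. The shares of all genes at least 2-fold higher, 18.8% uninduced and 21.1% induced, stand beside the counts of higher genes here and in the next lists. For higher and lower genes together, the shares of all genes at least 2-fold different either way were 30.8% uninduced and 32.8% induced. Vegfa, the ligand of Kdr and Flt1, was lower in the Hey2 line, at 21.2 and 17.0 RPKM in uninduced and induced Hey1-line cells and 8.76 and 7.94 RPKM in the Hey2 line. Vegfb, which binds Flt1, was at 23.9, 34.8, 12.9 and 9.73 RPKM in the same order. Pdgfb, which recruits mural cells, was 11.2-fold higher (5.81 to 24.2) in the uninduced Hey2 line, at 5.14 against 0.459 RPKM. Bmp4 stood at 5.49, 5.49, 4.80 and 6.05 RPKM.

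Among 20 co-receptors and signalling partners, 15 were listed in both uninduced libraries, with 3 at least 2-fold higher, 2 at least 2-fold lower and a median of 0.17. Induced, it was 3 and 2 of 13, with a median of 0.12. Nrp1, the co-receptor of Kdr, was 25.0 and 23.6 RPKM in Hey1-line cells and 6.26 and 6.27 RPKM in the Hey2 line, uninduced and induced. Grb10, an adaptor that binds receptor kinases, was 11-fold higher (9.25 to 13.1) in the uninduced Hey2 line, and Plcg1 was 1.55-fold higher (1.33 to 1.82). Efnb2 was 1.21-fold higher (1.02 to 1.45), but 1.04-fold (0.874 to 1.24) under median ratio scaling. Nrp2, a co-receptor of Flt4 named after its values were seen, was 3.42-fold higher (2.52 to 4.70).

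Of 19 junction partners, 16 were listed in both uninduced libraries, with 2 at least 2-fold higher, 3 at least 2-fold lower and a median of 0.14. Induced, it was 4 and 3 of 16, with a median of 0.29. Their most abundant genes serve many cell types. Ctnnb1 was 1.34-fold higher (1.27 to 1.42) in the uninduced Hey2 line and the small GTPase Rap1b 2.52-fold higher (2.14 to 2.96). Ctnna1 had a ratio of 0.465 (0.441 to 0.491) and Jup, the plakoglobin of desmosomes, one of 0.295 (0.261 to 0.333).

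Many endothelial transcription factors had a value in the Hey2 line only. Of 20, 6 and 7 were listed in uninduced and induced Hey1-line cells, and 15 and 17 in the Hey2 line. Their summed level was 31.4, 31.6, 36.1 and 44.0 RPKM, most of it from Ets2, Klf2, Prox1 and Ets1, which are also active outside vessels. Of the 6 listed in both uninduced libraries, 2 were higher and 4 lower in the Hey2 line, with a median of -0.24, and 9 more were listed in the Hey2 line only, beside 14.9% of all genes listed in either. In the induced pair, of the 7 listed in both, 5 were higher and 2 lower, with a median of 0.28, and 10 more were listed in the Hey2 line only (19.9% of all genes). Prox1, the lymphatic regulator that cardiomyocytes also express, stood at 12.1 and 13.0 RPKM in Hey1-line cells and 2.48 and 2.35 RPKM in the Hey2 line, and Ets1 was 1.73-fold higher (1.27 to 2.39) in the uninduced Hey2 line. Named after their values were seen, Etv2 and Tal1, early blood and vessel regulators, were blank in the Hey1 line. In the uninduced and induced Hey2 line Etv2 had 2.49 and 1.38 RPKM and Tal1 0.920 and 0.278 RPKM. The induction ratio was 0.554 (0.252 to 1.22) for Etv2 and 0.302 (0.136 to 0.638) for Tal1. Of the 15 factors listed in both Hey2-line libraries, 11 were higher and 4 lower after induction, with a median of 0.083. Tal1 had the only interval below 1. Intervals above 1 were those of Ets2 (1.78, 1.43 to 2.22), Klf2 (1.36, 1.06 to 1.74) and Nr2f2 (2.22, 1.24 to 4.20). Over all genes 6.07% had an interval below 1 and 6.96% above 1. Fli1, Lyl1 and Foxc2 were blank in all 4 libraries.

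Of 25 other endothelial markers, 7 and 5 were listed in Hey1-line cells and 15 and 20 in the Hey2 line. Podoplanin (Pdpn), a lymphatic marker that other cells also make, was 8.03-fold higher (5.04 to 13.4) in the uninduced Hey2 line, whereas Mcam had a ratio of 0.234 (0.194 to 0.280). Ecscr and Procr were listed in the Hey2 line only, at 1.72 and 2.17 RPKM and at 1.85 and 1.73 RPKM. The summed level of this list was 40.5, 39.5, 34.2 and 36.0 RPKM, of which Mcam alone gave 36.5, 35.7, 8.54 and 8.30 RPKM. Of the 6 listed in both uninduced libraries, 5 were higher and 1 lower in the Hey2 line, with a median of 0.44. A further 9 were listed in the Hey2 line only (14.9% of all genes listed in either) and 1 in the Hey1 line only. Induced, 3 of 5 were higher and 2 lower, with a median of 0.16, and 15 more were listed in the Hey2 line only (19.9%). Clec14a, Myct1, Lyve1, Sele and Selp were blank in all 4 libraries. Vwf (0.153 RPKM, 5 reads) and Nos3 (0.397 RPKM, 17 reads) were listed in the induced Hey2 line only, which is the deeper Hey2-line library. Mmrn2, Rasip1 and Stab1 were listed in all 4, with 12 to 42 reads, and Plvap in the Hey2 line at 1.29 and 1.24 RPKM. Over all genes, 12311, 12198, 14177 and 15095 were listed in Hey1 uninduced, Hey1 induced, Hey2 uninduced and Hey2 induced libraries.

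Markers of other cells gave the surroundings of these values. Of 16 blood cell markers, 2 were listed in each Hey1-line library and 6 and 7 in the Hey2 line. Gata1, Klf1, Ptprc, Spi1, Hba-x, Hbb-bh1 and Hbb-y were blank in all 4 libraries. Kit stood at 4.75 and 5.34 RPKM in the Hey2 line and was blank in the Hey1 line. Alas2 was at 0.845 and 1.03 RPKM in the Hey2 line, Hba-a1 was listed in the uninduced Hey2 line only, at 0.778 RPKM, and Cd44 ranged from 5.14 to 6.0 RPKM. Of 6 endocardial markers, 4 were listed in each Hey1-line library and 5 in each Hey2-line library, with summed levels of 4.13, 4.16, 6.64 and 5.43 RPKM. Hapln1 was 2.53-fold higher (1.59 to 4.10) in the uninduced Hey2 line, the uninduced intervals of Nrg1 and Nfatc1 spanned 1, and Tmem100 was listed in the Hey2 line only. In the induced pair Hapln1 was 1.52-fold higher (1.03 to 2.29; 0.830 to 1.85 under median ratio scaling), while Nfatc1 (ratio 0.574, 0.333 to 0.980) and Npr3 (0.439, 0.225 to 0.830) were lower in the Hey2 line.

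Summed mural and smooth muscle markers (12 genes) stood at 700 and 760 RPKM in Hey1-line cells and 210 and 247 RPKM in the Hey2 line, chiefly Des, Acta2, Tagln and Cnn1. Des, which stood at 360, 394, 44.1 and 44.9 RPKM, and Acta2, at 217, 253, 45.6 and 49.5 RPKM, carried most of that difference. Tagln stood at 71.1, 60.7, 82.5 and 111 RPKM. Of the 11 listed in both uninduced libraries, 6 were higher and 5 lower in the Hey2 line, with a median of 0.18. Induced, it was 5 and 5 of 10, with a median of -0.11. The medians of all genes were 0.18 and 0.22. Summed yolk sac endoderm markers (12 genes) stood at 94.0, 78.7, 42.1 and 40.8 RPKM, but Dab2 (8.64-fold, 6.56 to 11.6) and Cubn (15.0-fold, 10.3 to 22.8) were higher in the uninduced Hey2 line. Afp, the fetal plasma protein, stood at 58.5, 42.0, 1.42 and 0.970 RPKM, and Gata6 at 27.4, 28.8, 8.28 and 7.27 RPKM. The part of any of these cell types in the levels of the 10 genes was not tested.

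**Figure D4:**
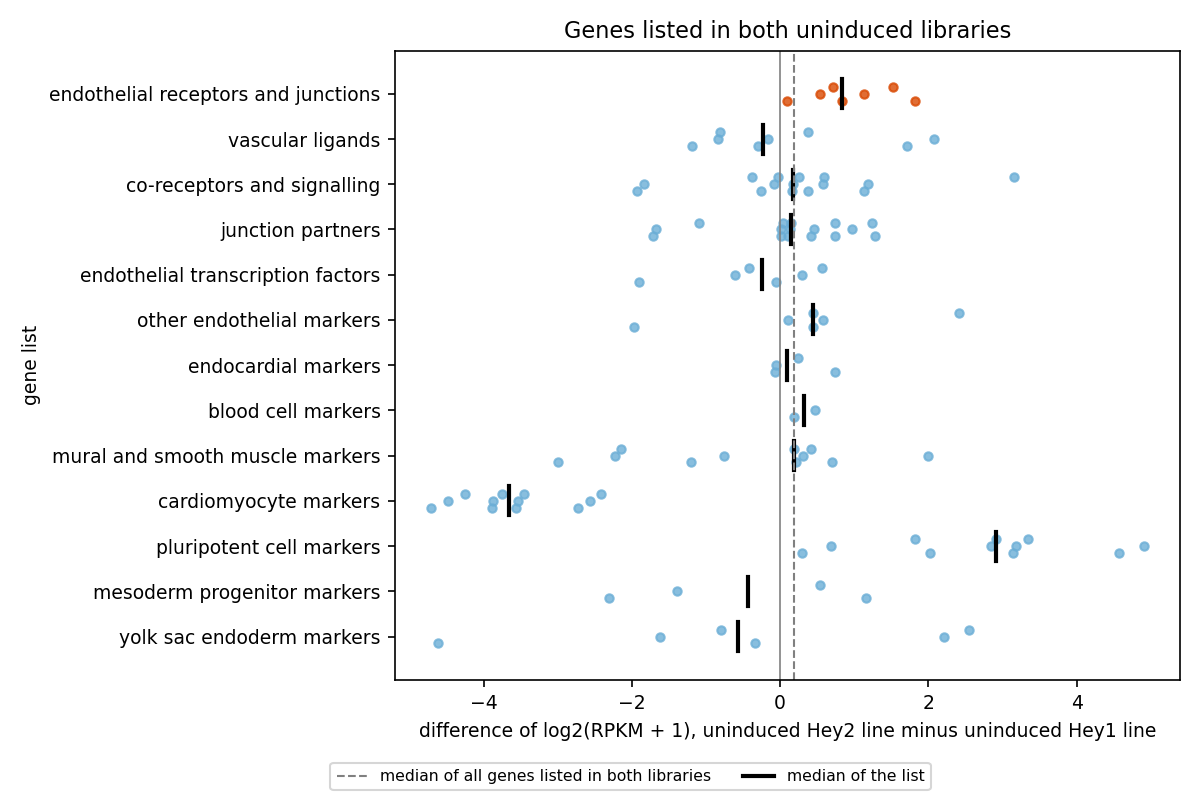
Difference of log2(RPKM + 1) between the uninduced Hey2 and Hey1 lines, 1 point per gene listed in both libraries, by list. Black bars are list medians, 0.84 for the endothelial receptors and junction genes, -3.66 for cardiomyocyte markers and 2.91 for pluripotent cell markers. The dashed line is the median of all genes listed in both, 0.18.

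Among 10997 genes listed in all 4 libraries at a mean of 1 RPKM or more, the 5 whose centred log2(RPKM + 1) profile lay nearest to the median profile of the 6 genes listed in all 4 included Wdr73, Polr3c, Ythdf1 and Msl2l1. Their Euclidean distances were 0.0463, 0.0473, 0.0496 and 0.0517 over 4 libraries. Wdr73, for example, stood at 2.42, 2.43, 5.90 and 5.38 RPKM. With 4 libraries such likeness is a description and carries no statement on function.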

How the data were processed

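The authors deposited 1 table of RPKM values for 23427 genes in 4 RNA libraries, made with the NEBNext kit per the labels' protocols, with 2 columns of signed fold scores that recompute from the deposited RPKM within 1.666e-08. The submitters' processing notes name Bowtie 1.0, DESeq, MACS 1.4.1 and the build mm9, without saying which step made the table. Reads were recovered from the RPKM steps: 99.95% of 15371 genes gave whole reads in every listed library, within 1.224e-05 of a whole number. Where several lengths fitted, the smallest that met the listing floor was used. Listed genes held 3151196, 3142314, 2296145 and 4182141 reads (Hey1 uninduced, Hey1 induced, Hey2 uninduced, Hey2 induced). No filter on low values was used. The pseudocount was 1 RPKM. The recovery and the intervals were also run on simulated Poisson reads drawn from the recovered reads and lengths. Such data cannot show whether those lengths or the Poisson assumption hold for the real libraries. With 1 library per group, no p-value was computed. The genes and lists were chosen with earlier results of these data known. Besides the 10 genes, the text names up to 4 genes of each list with the highest mean RPKM, every list gene at least 2-fold different in an induction, and the 5 nearest profiles, of which 1 is not reported here. Genes outside this rule, the blank ones included, were chosen after their values were seen. Lists share Tal1, Tmem100, Klf2 and Sox17. Gene names were matched by symbol or Entrez identifier. Alternatives were another pseudocount, a filter on low values, 2 readings of blank cells and 2 scalings. Python 3.11.15, NumPy 2.4.6, pandas 2.3.3, SciPy 1.17.1 and Matplotlib 3.10.9 were used.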

Additional observations from a re-analysis of the deposited data

Results flagged for a closer look

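In 4 genes the induced minus uninduced difference of log2(RPKM + 1) had opposite signs in the 2 lines, with 1 library on each side. The Hey2-line difference minus the Hey1-line difference was -0.56 for Kdr, which was higher after induction in Hey1-line cells and lower in the Hey2 line. It was -0.37 for Vegfc, 0.10 for Flt1 and 0.046 for Flt4. None of these differences between lines was tested, and of the 8 ratios behind them only that of Kdr in the Hey2 line had a counting interval off 1.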

How the results depend on the processing

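With a pseudocount of 0.1 RPKM in place of 1, the count of genes at least 2-fold higher in the uninduced Hey2 line went from 3 to 5 of 7, with Kdr and Tek added, because a smaller pseudocount shrinks low values less. The count stayed at 0 in both inductions under all 6 other settings, and between 2 and 4 in the induced pair. The median differences between lines, 0.84 and 0.90, ranged from 0.63 to 1.69 uninduced and from 0.48 to 1.56 induced. The lowest values came from reading blank cells as the listing floor, which adds the genes blank in 1 line. In the Hey1 line the median after induction, -0.0080, was 0.037 under median ratio scaling and 0.025 under upper quartile scaling. Of 87 single differences under an alternative, 81 stayed within the counting interval, 6 moved (Flt1, Flt4 and Eng between lines, all larger with the smaller pseudocount), and 2 changed sign. Added after the data were seen, leaving out Esam changed no 2-fold count. It could not have done so, because Esam is blank in the Hey1 line and enters only the Hey2 induction, where the count was 0. Scaling the counting intervals, also added then, left 5 of 7 genes above 1 uninduced under the median ratio (Pecam1 lost). The same scaling set Vegfc below 1 in the induced pair (ratio 0.614, 0.387 to 0.978), whereas under upper quartile scaling Vegfc spanned 1 (0.643, 0.404 to 1.02). No paired analysis was possible because each group has 1 library, and for the same reason no replicate could be left out. Scaling also moved intervals of list genes across 1, and those named with an interval off 1 are marked where they are given. Depth limits every ratio here: Tie1, Cdh5 and Esam rest on 6 to 20 reads where listed, and the Hey1-line values of Flt1, Flt4 and Eng on 12 to 17.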

Other observations

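The apelin receptor and the chemokine receptor Cxcr4, which guide early vessel and heart progenitors, had lower values after induction in both lines, with 1 library on each side. Both were singled out from the list of co-receptors after their values were seen. Of that list, 11 genes were higher and 7 lower after induction in the Hey2 line, with 3 intervals above 1 and 3 below. In the Hey1 line 6 were higher and 7 lower, with no interval above 1 and 2 below, those of these receptors. Aplnr went from 4.66 to 2.96 RPKM in Hey1-line cells (ratio 0.634, 0.472 to 0.847) and from 4.54 to 2.19 RPKM in the Hey2 line (0.483, 0.354 to 0.657). Cxcr4 went from 4.02 to 2.50 RPKM (0.621, 0.392 to 0.972) and from 2.88 to 1.43 RPKM (0.499, 0.285 to 0.868). Under median ratio scaling the Hey1-line interval of Cxcr4 was 0.417 to 1.03, which spans 1. Apln, the ligand of Aplnr, and Ramp2, the adrenomedullin receptor partner, were listed in the Hey2 line only, where Apln went from 2.15 to 1.07 RPKM (0.497, 0.306 to 0.806) and Ramp2 from 7.78 to 3.87 RPKM (0.497, 0.306 to 0.806). Apln and Ramp2 were picked in the same way. Of the vascular ligands, 6 were higher and 7 lower after induction in the Hey2 line. There 2 intervals lay below 1 and 2 above, those of Pdgfb (1.57, 1.23 to 2.03) and Edn1 (2.77, 1.13 to 8.14). Of all genes, 12.7% had a counting interval below 1 after induction in Hey1-line cells and 6.07% in the Hey2 line. Intervals above 1 were found for 4.66% and 6.96%. Under median ratio scaling 7.24% and 5.88% lay below 1, and 9.52% and 7.16% above.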
